A study of Mus musculus with 5 samples.

Results

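The heat shock proteins, the J proteins and the chaperonin subunits were examined on 5 Affymetrix arrays of mouse CD4+ T cells. Members were all probe sets whose single gene symbol in the platform annotation begins with Hspa, Hspb, Hspd, Hspe, Hsph, Hsp90, Dnaja, Dnajb or Dnajc, or is Tcp1, Cct2 to Cct8, Hsf1 or Hsf2. This rule found 202 probe sets of 82 genes among 45101 probe sets, of which 34945 carry a single symbol and represent 18193 genes. Hsf1 and Hsp90ab1 were not analysed here, and the 3 probe sets shared by Dnajc19 and a pseudogene were left out because they have several symbols.

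All cells carried a T cell receptor transgene that directs them to the tumor and came from adult Balb/c SCID mice aged 7 to 12 weeks. The 3 activated samples were sorted, at a purity of at least 95%, as CD4+ GB113+ cells from axillary nodes that drained a subcutaneous depot of Matrigel (250 µl) holding 100000 MOPC315 myeloma cells. The nodes were removed at day 8. The 2 naive samples were CD4+ cells from pooled nodes of TCR-transgenic SCID mice without tumor, handled in the same way. Each sample was a separate experiment on pooled animals (12 to 15 mice per tumor experiment), and no group given Matrigel alone was analysed here.

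Molecular chaperones bind unfolded proteins and help them to fold, to assemble or to be degraded. Hsp70 proteins cycle on and off their clients with ATP, J proteins deliver the clients and stimulate that cycle, and Hsp110 proteins such as Hsph1 and Hspa4l exchange the nucleotide. Hsp90 acts late, on kinases, receptors and transcription factors, many of which serve T cell signalling. The chaperonin TRiC, built from Tcp1 and the Cct subunits, encloses actin and tubulin. The chaperonin of mitochondria is Hspd1 (Hsp60) with its lid Hspe1 (Hsp10). Heat shock factors bind repeats of the unit GAA, alternately turned, in the promoters of many of these genes, and proteotoxic stress raises the inducible Hsp70 genes Hspa1a and Hspa1b most steeply.

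The stretches before the start sites of 7 members are shown in 6 sequences, since these are the members described most closely: the pair Hspd1 and Hspe1, which are transcribed away from each other, the inducible Hsp70 genes, the called gene Hspa4l, and the ER chaperones Hspa5 and Hsp90b1. Sequences are from RefSeq (GRCm38.p6), 5′ to 3′. Capitals mark the fixed letters of a heat shock element in the first 3 stretches, and the stretch of Hspa4l holds none. The shorter form has 2 units (GAANNTTC or TTCNNGAA, each its own reverse complement) and the longer has 3 in a row, GAA, TTC and GAA or TTC, GAA and TTC, with NN between units, so that it contains the shorter. In Hspa5 and Hsp90b1 they mark an ER stress response element, that is CCAAT and CCACG with 9 bases of any kind between them, on either strand. Hspa1a, Hspa1b, Hspa4l, Hspa5 and Hsp90b1 are printed on their own strand and end at the base before the start. The stretch between the 2 diverging starts is printed on the plus strand and uses the Hspd1 start at 55087932. Hspd1 has a further listed start at 55088243, beyond the Hspe1 start at 55088148, which was not used for this stretch.
Hspd1 to Hspe1, chr1:55087933-55088147: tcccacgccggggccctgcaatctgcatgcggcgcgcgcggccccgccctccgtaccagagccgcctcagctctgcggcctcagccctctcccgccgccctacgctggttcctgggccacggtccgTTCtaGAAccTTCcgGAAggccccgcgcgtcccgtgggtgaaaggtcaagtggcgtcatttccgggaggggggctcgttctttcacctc
Hspa1a, chr17:34972157-34972356, minus strand: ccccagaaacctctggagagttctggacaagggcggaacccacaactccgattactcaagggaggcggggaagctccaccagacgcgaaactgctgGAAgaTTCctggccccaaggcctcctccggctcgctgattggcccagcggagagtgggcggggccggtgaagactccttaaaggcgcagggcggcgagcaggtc
Hspa1b, chr17:34959239-34959438, minus strand: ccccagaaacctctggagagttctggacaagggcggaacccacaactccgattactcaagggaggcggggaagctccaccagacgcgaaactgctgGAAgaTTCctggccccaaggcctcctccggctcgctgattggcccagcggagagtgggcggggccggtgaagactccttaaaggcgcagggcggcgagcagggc
Hspa4l, chr3:40745413-40745612, plus strand: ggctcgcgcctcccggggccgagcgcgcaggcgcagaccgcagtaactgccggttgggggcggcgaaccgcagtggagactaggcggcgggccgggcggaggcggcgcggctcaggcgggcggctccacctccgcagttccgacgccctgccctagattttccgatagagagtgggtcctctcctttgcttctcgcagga
Hspa5, chr2:34771970-34772089, plus strand: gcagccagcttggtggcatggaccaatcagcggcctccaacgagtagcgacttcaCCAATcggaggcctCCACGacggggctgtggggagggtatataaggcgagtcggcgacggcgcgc
Hsp90b1, chr10:86705445-86705664, minus strand: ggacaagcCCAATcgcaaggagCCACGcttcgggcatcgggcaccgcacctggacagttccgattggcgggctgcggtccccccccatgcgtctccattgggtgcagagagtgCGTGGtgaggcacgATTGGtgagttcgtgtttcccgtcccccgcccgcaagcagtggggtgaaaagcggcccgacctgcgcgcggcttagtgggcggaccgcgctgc

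Promoter windows of 300 bases (250 before the start to 50 after) were matched by gene ID for 68 of the 82 members. The other 14, among them Hspa8, Hsp90aa1, Hspa9, Hspa13 and Dnajc18, had no window and were not searched. The longer element, with 3 units, was found for 4 of the 68 genes (5.88%), against 0.662% of 27025 genes with a window. They were Hspd1, Hspe1, Hsph1, which exchanges nucleotide on Hsp70, and Dnajb6, a J protein that holds back aggregation. The shorter element, with 2 units, was found for 19 of 68 members (27.9%) and 17.0% of all genes, Hspa1a and Hspa1b among them. The ER stress response element was found for 3 of 68 members (4.41%), Hspa5, Hsp90b1 and Dnajc3, and 0.137% of all genes. Between the Hspd1 and Hspe1 starts the units TTC, GAA, TTC and GAA follow each other, each 2 bases from the next, so the same letters serve both windows. Over the 200 bases before their starts Hspa1a and Hspa1b are the same at 199 positions (99.5%). Each match describes the letters of the window only.

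The deposited values are intensities on a linear scale, scaled so that each array has about the same average. They were compared as log2(intensity + 16) with limma's moderated test on all genes, using for each gene its brightest probe set. A gene was called at an adjusted p under 0.05 (Benjamini-Hochberg over 12873 tested genes). A log2 difference of 1 is a doubling on that scale, which understates the differences of dim genes. A gene was tested if its intensity lay above the 40th percentile of the array on at least 2 arrays, which is a level of 10.5 to 13.4. Of the 82 members 76 were tested, and 66 of these lay above that level on all 5 arrays. The 6 untested members were Dnajb3, Dnajc5g, Hspa12b, Hspa1l, Hspb7 and Hspb9, with intensities from 0.5 to 18.2.

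Most members differed little between activated and naive cells. Of 76 tested members 2 were higher, Hspa4l and Hspd1, and 2 were lower, Dnajc6 and Dnajc28, which is 2.63% in each direction. Over all tested genes 6.36% were called higher and 4.14% lower. The median log2 difference of the members was -0.03, as over all genes (-0.03). The middle 50% of members lay between -0.25 and 0.18, and that of all genes between -0.28 and 0.25. For 62 of 76 members (81.6%) the 95% interval of the log2 difference lay inside -1 to 1, against 71.4% of all tested genes. The arrays of the groups did not overlap for 12 members with the activated arrays above and 12 with them below, or 31.6% together. Over all tested genes 20.3% lay above and 20.7% below, or 40.9%. All 17 tested genes of a cell division list were higher in the same samples, with a median log2 difference of 2.07.

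**Figure D1:**
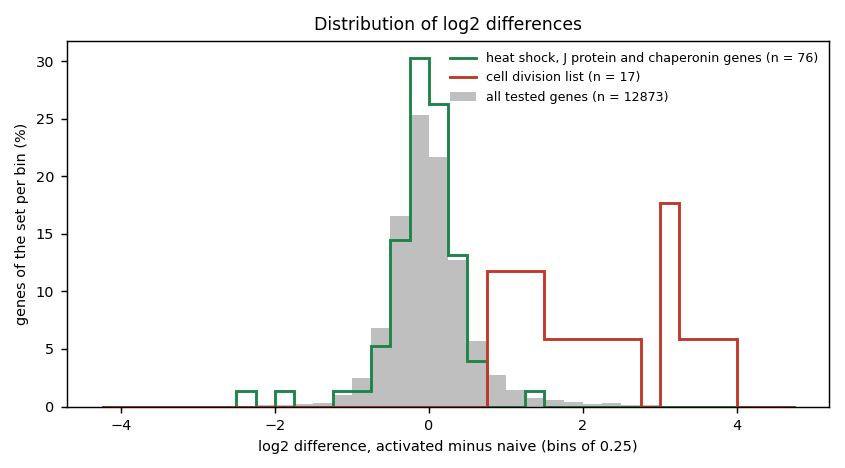
Share of genes (%) in bins of 0.25 of the log2 difference, activated minus naive, for all 12873 tested genes (grey bars), the 76 tested heat shock, J protein and chaperonin genes (green line) and the 17 tested genes of a cell division list (red line). The members follow the distribution of all genes around 0, while the cell division genes lie from 0.90 to 3.93.

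Facts of the arrays that touch these values were as follows. The defining T cell transcripts Cd3d, Cd3e, Cd3g and Cd4 were bright on all 5 arrays, from 732.6 for Cd4 on naive replicate 2 to 4906 for Cd3d on activated replicate 1. Of the B cell list 1 of 4 tested genes was higher in activated cells, Cd22, at 59.7, 92.6 and 90.9 against 30.7 and 20.5. The defining Cd79a and Ms4a1 did not exceed 15.2. Pax5 read 16.1, 27.5 and 22.8 against 3.9 and 16.8 and was not called. Cd79b, which was not tested, read 11.2, 14 and 7.7 against 7.5 and 5. The summed B cell list read 97.6 to 157.7 against 65.5 to 68.2. Of the CD8 list 1 of 2 was lower, Cd8b1, at 246.8 to 326.5 against 797.6 and 995.7, with the list summing to 271.2 to 405.7 against 851.6 and 1040.3. Of the exocrine pancreas list 2 of 4 were lower, Cela3b and Ctrb1, with the list summing to 170.4 to 212.1 against 241.5 and 248.5. Prss2, the brightest gene of that list, read 131.1, 160.4 and 151 in activated cells against 97.2 and 82.5. It was not called (adjusted p = 0.054 in limma). The summed intensity of 9 macrophage and monocyte markers was 2723 on activated replicate 1, 127.5 and 958.8 on activated replicates 2 and 3, and 362.6 and 225.1 on naive replicates 1 and 2. None of these 9 was at 0, and none was called. On activated replicate 1 Lyz2 read 1953.9 and Csf1r 460. Lyz2, Csf1r, Cd68 and C1qa were highest on that array. Adgre1, Cd14, C1qb and C1qc were highest on activated replicate 3, and Fcgr1 on naive replicate 1. The summed NK cell markers were also highest on activated replicate 1, at 4160 against 924.2 to 1412.3 elsewhere, with Gzma at 2489.5. Of this list 1 of 5 tested genes was higher, Eomes, at 696.4, 281.6 and 440.9 against 154.9 and 43.4. Prf1 had a log2 difference of -1.48 and was not called. The neutrophil list summed to 880.2 on activated replicate 1 and 13.5 to 77.8 elsewhere. The dendritic cell list summed to 183.6, 96.4 and 61.8 in activated samples against 63.1 and 66.2 in naive ones, with 0 of 3 tested genes called. The plasma and MOPC315 cell list summed to 1248, 1095.8 and 1231.4 against 1179.1 and 1312.9, with 0 of 4 called. Xbp1 made up most of that sum, at 1061.6 to 1263.6. Of the stroma list 1 of 5 was higher, Pecam1, at 305.1, 258.6 and 345.4 against 157.9 and 168.7. The bioC hybridisation control was lower on activated replicate 3 and naive replicate 2 (log2 means of 7.41 and 7.70) than on the other arrays (9.31 to 9.49). The labels give no batch. The ratio of the 3′ to the 5′ actin control probe set, which rises as RNA is degraded, was 1.19 to 1.29 in activated and 1.42 and 1.78 in naive samples. The same ratio for Gapdh differed less, at 0.68 to 0.74 in activated and 0.74 and 0.79 in naive samples. Fewer cells of a type and less RNA per cell cannot be told apart in these bulk samples.

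Among the Hsp70 and Hsp110 genes 12 were tested, 1 was higher and 0 were lower, with a median log2 difference of 0.00. The one was Hspa4l, an Hsp110-type partner of Hsp70 on chromosome 3. Its intensities were 175.6, 163.8 and 194.3 on the activated arrays, against 56.5 and 74.8 on the naive ones. All activated arrays were brighter than both naive ones, and the group means had a ratio of 2.71. The log2 difference was 1.25 ± 0.19 (SE, 95% interval 0.84 to 1.67, adjusted p = 0.0018 in limma). All 5 tested probe sets of Hspa4l pointed the same way, from 0.73 to 1.25, and 2 of them were called in the fit on all 23722 tested probe sets, in which 5.58% were higher. The call held on leaving out each array in turn, with log2 differences from 1.09 to 1.42. On probe sets without a shared-sequence suffix the difference was 0.74 (adjusted p = 0.041). Within the arrays of high and of low bioC signal it was 1.36 and 1.21.

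Hspa4, the close relative of Hspa4l, had intensities of 1150.1, 907.2 and 791.1 in activated cells against 714.2 and 802.8 in naive ones. These groups overlapped, and its log2 difference of 0.30 did not pass (adjusted p = 0.36). Hsph1, another Hsp110-type gene, read 798.3, 414.9 and 312.4 in activated cells against 777.7 and 627.1 in naive ones. Activated replicate 1 was as bright as the naive arrays and the other two activated arrays lay below both of them. Its log2 difference was -0.55 (interval -1.25 to 0.15, adjusted p = 0.32), and without activated replicate 1 it was -0.93 and passed (adjusted p = 0.023). Activated replicate 1 also had the highest sums of macrophage, dendritic cell, NK cell and neutrophil markers. The part of such cells in the value of Hsph1 was not tested. The second probe set of Hsph1 read 476.2, 151.5 and 112.1 against 272.3 and 144.2, with a log2 difference of 0.03.

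The inducible Hsp70 genes Hspa1a and Hspa1b varied more within the groups than any other tested member. Hspa1b read 117.5, 33.3 and 305.2 on the activated arrays, against 150.4 and 2752.8 on the naive ones. Hspa1a read 16.3, 2.2 and 102.9 in activated cells against 29.6 and 478.7 in naive ones. Naive replicate 2 stood far above all other arrays for both genes, and among the activated arrays replicate 3 was the highest and replicate 2 the lowest. The naive arrays differed from each other by 4.06 for Hspa1b and 3.44 for Hspa1a on the log2 scale. The next largest naive difference among the members was 1.24, for the dim Dnajc22. The log2 differences between the groups, -2.40 ± 1.0 (SE) for Hspa1b and -1.87 ± 0.91 (SE) for Hspa1a, did not pass (adjusted p = 0.17 and 0.25), and their intervals ran from -4.62 to -0.19 and from -3.90 to 0.16.

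1 array decides these values. Without naive replicate 2 the log2 differences were -0.37 for Hspa1b and -0.15 for Hspa1a (adjusted p = 0.83 and 0.94). Without naive replicate 1 they were -4.43 and -3.59 and both passed (adjusted p = 0.0095 and 0.029). Within the arrays of high bioC signal Hspa1b differed by -1.04 and Hspa1a by -0.91. Within those of low bioC signal, which hold the brightest activated and the brightest naive array, the values were -3.11 and -2.06. With this split as a block, an alternative chosen after seeing the data, Hspa1b had a log2 difference of -1.92 (adjusted p = 0.020) and Hspa1a one of -1.40 (adjusted p = 0.014). The 4 tested probe sets of both genes showed the same order of the naive arrays. The genes are near copies, so their probes may read each other's transcripts.

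**Figure D2:**
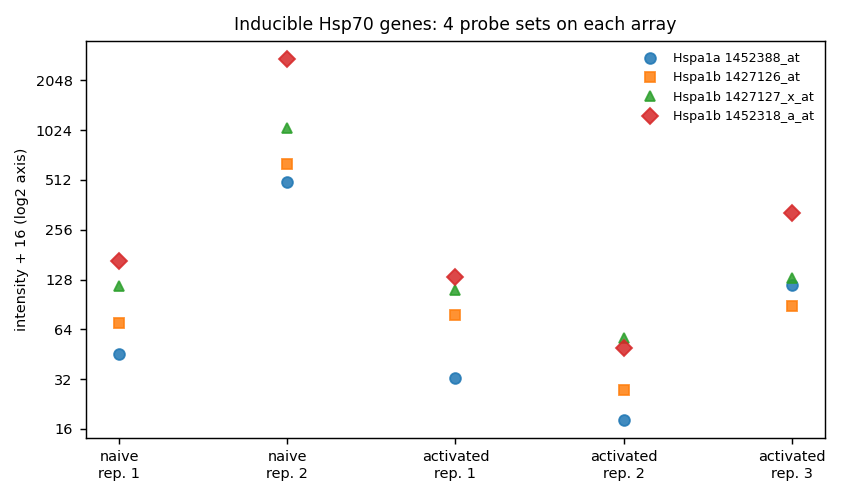
Intensity plus 16 on a log2 axis for the 3 probe sets of Hspa1b and the probe set of Hspa1a on each of the 5 arrays. All 4 are highest on naive replicate 2, where they reach 478.7 to 2752.8 in intensity, and lowest on activated replicate 2.

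Other transcripts that cell handling induces were set beside them. Fos, an immediate early gene, read 858.0 on naive replicate 2 and 95.2 on naive replicate 1, with 290.6, 183.9 and 426.0 on the activated arrays. Its highest array was the same as that of Hspa1a and Hspa1b, and so was its highest activated array. Of the 11 immediate early genes on the array 4 were highest on naive replicate 2 and 7 on an activated array, and Atf3 (2.4) and Ier3 (6.1) were lowest on naive replicate 2. Jun, its partner, was lower in activated cells, at 37.8, 25.5 and 42.0 against 143.3 and 320.1 (adjusted p = 0.0010). Of 10 tested immediate early genes 1 was higher, Egr1, and 1 was lower, Jun, with summed intensities of 4098.4 to 5422.3 in activated and 2212.4 to 3516 in naive cells. Naive replicate 2 also had the highest actin control ratio. The part of cell handling or RNA quality in the values of Hspa1a and Hspa1b was not tested.

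The constitutive Hsp70 of the cytosol, Hspa8, was among the brightest members, at 6823.6, 6157.8 and 5276.2 in activated cells against 7300.7 and 7040.2 in naive ones. Both naive arrays lay above all activated ones, but the log2 difference of -0.24 did not pass (interval -0.63 to 0.14, adjusted p = 0.44). A dim probe set of Hspa8 read 265.5 on naive replicate 2 and 55.7 to 81.4 on the other arrays, again with its peak on the array that was highest for Hspa1b. Hspa9, the Hsp70 of mitochondria, read 754.1, 529.3 and 681.1 against 761.2 and 867.6, with a log2 difference of -0.32 (adjusted p = 0.33). Hspa13, an Hsp70-like protein of the ER, read 201.2, 208.6 and 211.1 in activated cells against 136.3 and 149.8 in naive ones. These groups did not overlap, and all 4 of its probe sets had positive differences (0.49 to 1.05), but the gene missed the threshold (adjusted p = 0.089). Hspa14, which acts at the ribosome, also lay higher on all 3 activated arrays, with a log2 difference of 0.44 (adjusted p = 0.18). Hspa13 and Hspa14 were chosen for naming after their values were seen.

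The mitochondrial chaperonin pair was measured by Hspd1 and Hspe1. Hspd1, the barrel subunit on chromosome 1, read 1955.2, 1616.7 and 1338.4 on the activated arrays, against 950.9 and 988.5 on the naive ones. The lowest activated value lay above both naive values. Its log2 difference was 0.73 ± 0.18 (SE, interval 0.32 to 1.14, adjusted p = 0.030). The call was lost without activated replicate 1 (0.59, adjusted p = 0.080), activated replicate 2 (0.73, adjusted p = 0.11), naive replicate 1 (0.70, adjusted p = 0.13) or naive replicate 2 (0.76, adjusted p = 0.13). It was also lost with no filter (adjusted p = 0.064) and without the intensity trend (adjusted p = 0.079). Within the arrays of high bioC signal the difference was 0.89, and within those of low bioC signal 0.43.

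Hspe1, the lid subunit, which shares the stretch between the starts with Hspd1, read 2648.4, 2252.5 and 1757.9 in activated cells against 1696.8 and 1784.9 in naive ones. Activated replicate 3 lay between the naive arrays, so the groups overlapped. Its log2 difference was 0.33 (interval -0.09 to 0.75, adjusted p = 0.34), and its second probe set gave 0.31. Both genes had their brightest activated array in replicate 1 and their dimmest in replicate 3. The difference between the changes of Hspd1 and Hspe1 was not tested. Among all 8 tested members of mitochondria 1 was higher, Hspd1, and 1 was lower, Dnajc28, with a median log2 difference of -0.12.

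**Figure D3:**
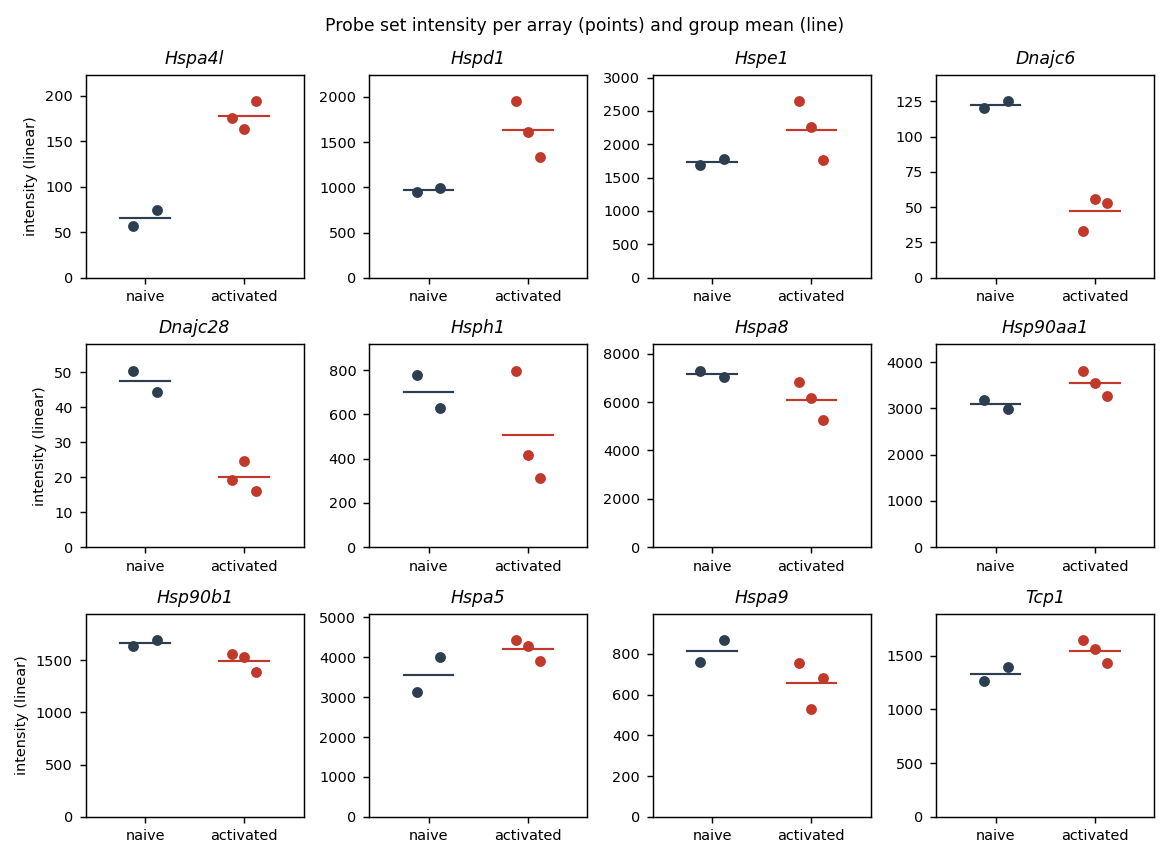
Intensity on a linear scale for 12 members on each array, with points in replicate order from left to right within naive (dark) and activated (red) samples and lines at the group means. Hspa4l, Hspd1, Dnajc6 and Dnajc28 show groups that do not overlap and were called. Hsph1 and Hspe1 show overlapping groups.

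Of the Hsp90 genes Hsp90aa1, the inducible form of the cytosol, and Hsp90b1, the form of the ER, were tested and neither was called. Hsp90aa1 read 3816.8, 3549 and 3271.5 in activated cells against 3179.7 and 2995.3 in naive ones, a log2 difference of 0.20 (interval -0.16 to 0.55, adjusted p = 0.50). Its groups did not overlap. A further probe set of Hsp90aa1, chosen for naming after its values were seen, read 2082.5, 1652 and 1396.7 against 1121.1 and 873.3. It was called higher in the fit on all probe sets, with a log2 difference of 0.76 (adjusted p = 0.046), and one more gave 0.61 (adjusted p = 0.11). The 4 tested probe sets of this gene thus gave unequal differences, from -0.29 to 0.76, and the brightest gave the smallest of the bright ones. Hsp90b1 read 1557.6, 1528.4 and 1390.3 against 1638.4 and 1692.1, a log2 difference of -0.16 (adjusted p = 0.58). Its second probe set gave 0.77, with 213.9 on naive replicate 2 against 541.3 to 701.9 elsewhere.

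Members of the ER were tested for 13 genes, and 0 were called at the adjusted threshold in limma, while 2 were higher and 1 was lower at an unadjusted p under 0.05. Over all tested genes 12.8% were higher and 11.5% lower at that unadjusted level. Hspa5 (BiP), the Hsp70 of the ER, read 4430.4, 4275.7 and 3902.1 in activated cells against 3122.5 and 4006.6 in naive ones. Naive replicate 2 lay within the range of the activated arrays, and the log2 difference was 0.25 (interval -0.14 to 0.63, adjusted p = 0.44). Dnajc3, a J protein of the ER lumen whose window holds the ER stress response element like that of Hspa5, read 618, 668.5 and 868.3 against 779.7 and 1106.7. Its log2 difference was -0.38 (adjusted p = 0.29). The 3 members with that element thus had log2 differences of 0.25, -0.16 and -0.38, and none was called. Dnajc18 and Dnajc1, both membrane-bound J proteins, came nearest to the threshold, at 0.63 (adjusted p = 0.056) and -0.52 (adjusted p = 0.063). Dnajc18 passed with a filter at the 60th percentile, with robust variances, with array weights and with the bioC split as a block. Dnajc1 passed with the first and the last of these. Of the 3 tested probe sets of Dnajc18 the dimmer ones pointed down, at -0.30 and -0.12, and those of Dnajc1 ran from -0.52 to 0.10. Both genes were chosen for naming after their values were seen.

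No chaperonin subunit was called. Of 9 tested subunits 0 were higher and 0 were lower, 0 also at an unadjusted p under 0.05, and 7 had positive log2 differences, with a median of 0.10 and a range of -0.09 to 0.32. The interval of all 9 lay inside -1 to 1. These values are those of the brightest probe set of each gene. The tested probe sets of Cct4 ran from -0.14 to 0.59 and those of Cct3 from -0.15 to 0.43. Those of Cct2 ran from -0.03 to 0.37, and no probe set of these genes was called. Tcp1 read 1643.4, 1560 and 1434.1 in activated cells against 1263.4 and 1392.4 in naive ones, with a log2 difference of 0.22 (interval -0.13 to 0.56, adjusted p = 0.44). Cct5 read 2421.6, 2131.8 and 2095.4 against 1929.1 and 1915.7, at 0.20 (adjusted p = 0.48). Tcp1 and Cct5 were the only subunits of the 9 whose groups did not overlap. Cct7 had the largest difference, 0.32, with 1671.2, 1455 and 1064.3 against 1190.1 and 1009.4 (interval -0.13 to 0.77, adjusted p = 0.38). Cct2, Cct3, Cct4, Cct6a and Cct8 had differences of 0.10, 0.01, -0.03, 0.04 and 0.13, and all of them overlapped. The signs of Cct3, Cct4 and Cct6a turned when single arrays were left out. Cct6b, known mainly from testis, was dim, at 4.3 to 16.2.

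**Figure D4:**
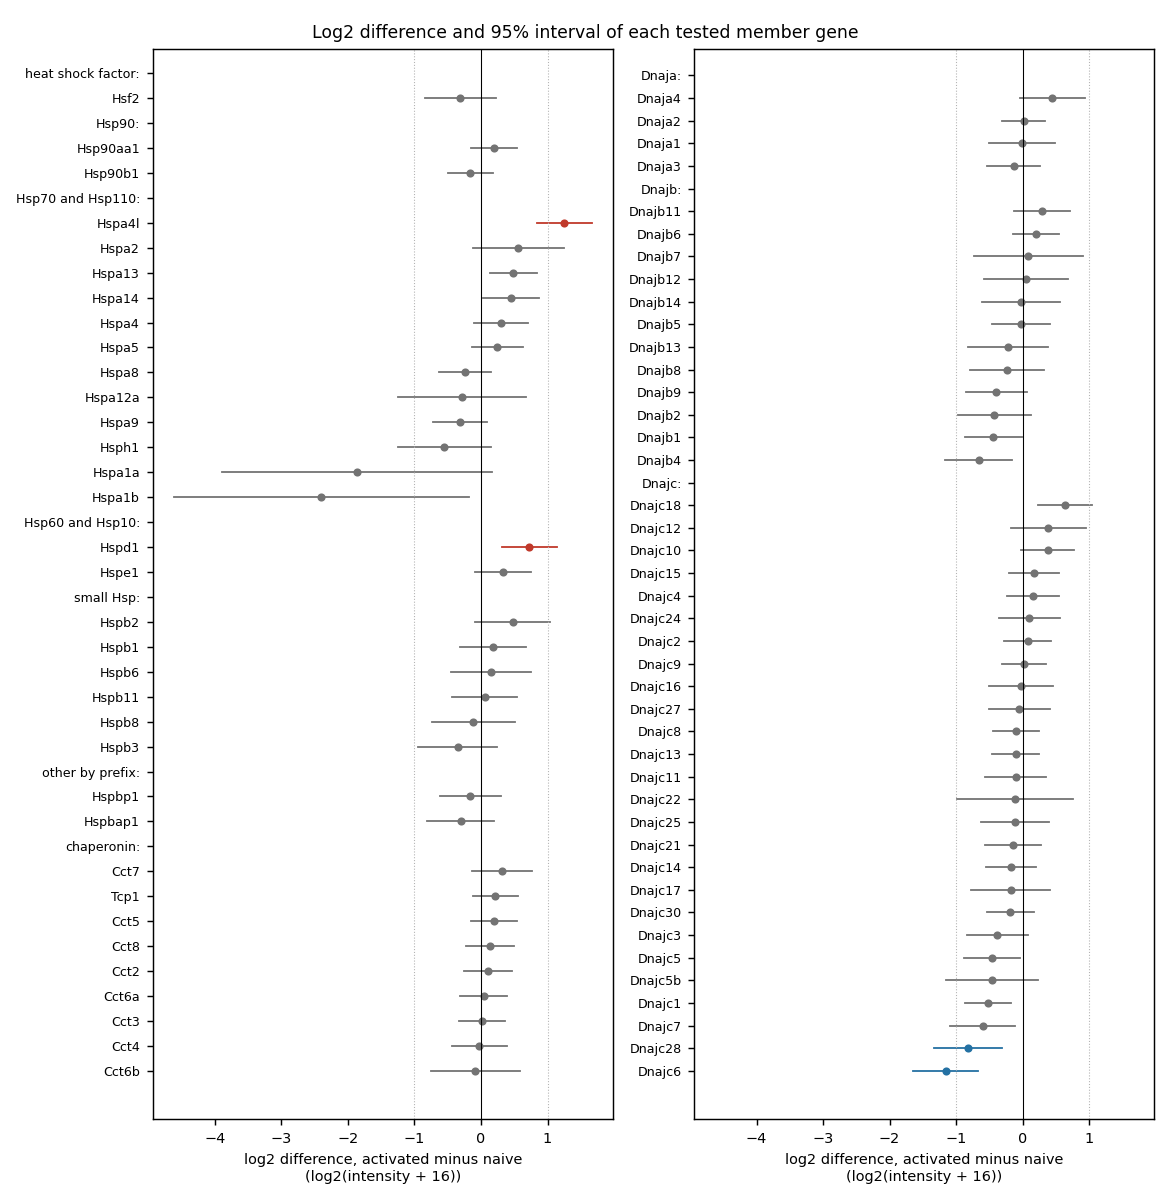
Log2 difference (activated minus naive, on the scale of log2(intensity + 16)) with its 95% interval from limma for each of the 76 tested members, grouped by role, with genes called higher in red, called lower in blue and others in grey, and dotted lines at -1 and 1. The 9 chaperonin subunits lie between -0.09 and 0.32, and the widest intervals are those of Hspa1a and Hspa1b.

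J proteins made up 42 of the tested members, with 0 of 4 Dnaja, 0 of 12 Dnajb and 2 of 26 Dnajc genes called. Dnajc6 (auxilin), which recruits Hsc70 to strip clathrin from vesicles and is best known from neurons, read 33, 55.9 and 52.8 in activated cells against 120.1 and 125.3 in naive ones. All activated arrays were dimmer than both naive ones. Its log2 difference was -1.15 ± 0.22 (SE, interval -1.64 to -0.66, adjusted p = 0.0074). A second probe set was also called lower, at -1.41 (adjusted p = 0.0061), with 10.1, 6 and 10 against 42.9 and 56.8, and 2 further probe sets lay under the filter. The call was lost without naive replicate 2, at -1.13 (adjusted p = 0.068), and when all 4 probe sets were averaged, at -0.59 (adjusted p = 0.061). Within the arrays of high and of low bioC signal the difference was -1.20 and -1.04.

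Dnajc28, which carries a J domain, was dimmer, at 19.3, 24.7 and 16 in activated cells against 50.5 and 44.4 in naive ones. The groups did not overlap, and the log2 difference was -0.82 ± 0.23 (SE, interval -1.33 to -0.31, adjusted p = 0.047). This call was lost on leaving out any single array, with log2 differences from -0.92 to -0.74. Other settings that lost it were a pseudocount of 1, no filter, the 60th percentile as filter, averaged probe sets, array weights and the replicate number as a block. In the fit on all probe sets, where 3.07% were lower, it had an adjusted p of 0.055. Cd8b1, Cela3b and Ctrb1 were lower in the same samples as Dnajc6 and Dnajc28, while Prss2 was brighter on all activated arrays. The part of other cells in the values of Dnajc6 and Dnajc28 was not tested.

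Dnaja1 and Dnaja2, the main type A partners of Hspa8, had log2 differences of -0.01 and 0.02. Dnaja2 was nearly level across the arrays, at 1884.6, 1918.6 and 1923.2 in activated cells against 1885.7 and 1889.6 in naive ones (interval -0.31 to 0.34). Dnaja1 spread more, with 3208, 2377.3 and 1840.9 against 2616.8 and 2258.1 (interval -0.51 to 0.49). Dnajb1 (Hsp40), the stress-inducible type B partner of Hsp70, read 636.5, 529.3 and 551.9 in activated cells against 640.3 and 947.6 in naive ones. Its brightest array was naive replicate 2, as for Hspa1b, and its log2 difference of -0.44 did not pass (adjusted p = 0.19). The second probe set of Dnajb1 did not show that peak. It read 498.4, 386.2 and 278.2 against 444.7 and 419.6, with activated replicate 1 brightest and a log2 difference of -0.19. Dnajb6 read 815.3, 817.7 and 721.4 against 637.3 and 726 (log2 difference 0.20, adjusted p = 0.49), and its 4 probe sets ran from -0.62 to 0.35. Dnajc2, which works with Hspa14 at the ribosome, had a log2 difference of 0.08 (interval -0.28 to 0.43). Dnajc7 and Dnajb4, chosen for naming after their values were seen, lay lower on all activated arrays, at -0.60 (adjusted p = 0.12) and -0.66 (adjusted p = 0.097). Without activated replicate 3 Dnajc7 passed at -0.78, and without activated replicate 1 Dnajb4 passed at -0.85.

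Hsf2 was the heat shock factor among the members, and it was dim, at 28.5, 20.4 and 17.4 in activated cells against 33.7 and 28.3 in naive ones (log2 difference -0.31, adjusted p = 0.48). Of the small heat shock proteins, holdases that bind unfolded proteins without ATP, 6 were tested and 0 called, or 0 at an unadjusted p under 0.05. Hspb1 (Hsp27) read 40.4, 33.1 and 32.1 against 24.8 and 33.8, at 0.18 (adjusted p = 0.69). The brightest gene of this name series, at 283.5 to 443.9, was Hspb11, which is a ciliary transport subunit. Hspbp1, a nucleotide exchange factor of Hsp70, and Hspbap1, a protein that binds Hspb1, are members by their prefix only, with log2 differences of -0.16 and -0.31, and neither passed.

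Probe sets of a gene did not always give the same sign. Of 173 tested member probe sets 4 were called higher and 2 lower in the fit on probe sets, where 8.65% of all were called in either direction, and no gene had calls in both directions. Among 47 members with several tested probe sets, 23 had both positive and negative log2 differences and 24 had 1 sign. Hspa4l and Hspa13 were in the second set. Hspa9 had probe sets from -0.77 to 0.24, and Hspa8 from -0.72 to 0.13.

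**Figure D5:**
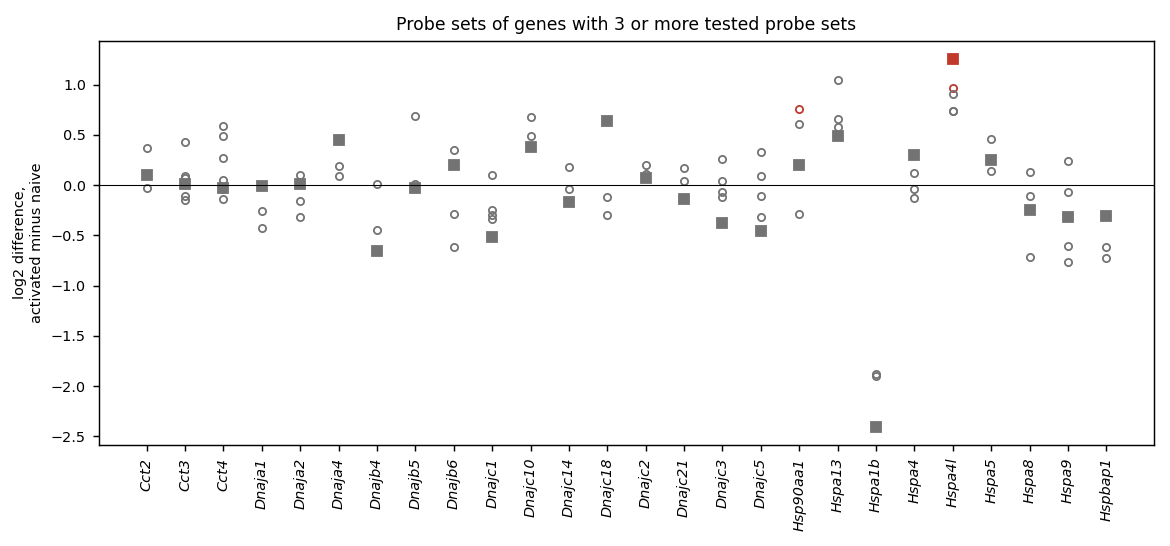
Log2 difference (activated minus naive) of the 102 tested probe sets of the 26 members with 3 or more of them, with filled squares for the brightest probe set, which stands for the gene, open circles for the others, and red for called higher. The 5 probe sets of Hspa4l all lie above 0, from 0.73 to 1.25, and the 3 of Hspa1b all lie below it, from -2.40 to -1.88.

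Partners of these chaperones that are not members were counted in the same way. Of 17 tested Hsp90 cochaperones 0 were called at the adjusted threshold in limma (median log2 difference -0.07), and 2 were higher and 2 lower at an unadjusted p under 0.05. Of 13 tested Hsp70 cofactors, such as the BAG proteins, 0 were called (median 0.01), with 1 higher and 1 lower at the unadjusted level. Of 16 tested prefoldin, tubulin and chaperonin cofactors 1 was higher and 0 lower (median 0.09). The one was Tbcb, a cofactor that folds alpha tubulin, which read 399.6, 330.9 and 311.5 in activated cells against 165.4 and 136 in naive ones (log2 difference 1.12, adjusted p = 0.0026). Of 13 tested mitochondrial chaperones and proteases 0 were called (median 0.09), with 1 higher and 1 lower at the unadjusted level. Of 5 other tested heat shock factors and regulators, among them Hsf4 at 3.8 to 24.8, 0 were called, and 0 passed at the unadjusted level.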

How the data were processed

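The deposited values are probe set intensities on a linear scale. Per the labels' protocols they come from biotin-labelled cRNA made from 6 µg of total RNA. How probe signals were summarised and scaled, and by which software, is not given in the sources used here. A 2% trimmed mean of the values was 100.0 on each of 5 arrays. The number of arrays (3 and 2) limits precision. Gene names are those of the platform annotation (932 had several symbols, 9160 none, 64 were controls), and all 82 member symbols were current in RefSeq of GRCm38.p6.

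From these, log2(intensity + 16) was computed, and limma 3.58.1 in R 4.3.3 (lmFit, then eBayes with trend, two-sided, Benjamini-Hochberg) was fitted with the group as the only term to 12873 genes and, separately, 23722 probe sets. The test code was tested on simulated data. P-values measure the spread between these independent experiments.

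The members and lists were chosen with earlier results of these data known. Named were called members, a fixed panel, and called partners. Alternatives were other scalings, filters, pseudocounts, probe set rules, variance models, array weights, blocks, and each array left out, where a lone naive array is assumed to vary like the others. No pair of arrays shared more than 0.947% of its values.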

Additional observations from a re-analysis of the deposited data

How the results depend on the processing

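Hspa4l was called under all 18 alternatives. The 2 members higher became 1 with no filter, 1 without the intensity trend, 4 under the replicate block and 4 with the bioC split as a block. The higher count became 3 with the 60th percentile filter, robust variances or array weights, each adding Dnajc18, and 3 with averaged probe sets, adding Dnajc10 (0.51, adjusted p = 0.048), and was 1 to 2 when single arrays were left out. The 2 lower became 1 with no filter, 1 with a pseudocount of 1, 0 with averaged probe sets, 1 with array weights, 5 with the replicate number as a block, 6 with the bioC split as a block, and 0 to 3 when single arrays were left out. The 0 chaperonin subunits higher became 1 with the replicate number as a block (Cct7, 0.50) and stayed 0 when single arrays were left out. That block uses no value of activated replicate 3, whose number has no naive partner, and only 2 numbers are shared. Deviations of same-numbered arrays from their group means correlated at 0.17 and -0.13, and those of activated replicate 3 and naive replicate 2 at 0.31. With 2 naive arrays their deviations mirror each other, so these values cannot show whether same-numbered samples were paired. With the replicate block Hspa1a, at -2.63, and Hspa1b, at -3.06, were called lower and Hspe1, at 0.49, higher. The share of all tested genes called under each alternative is not given here. Changes in the member counts are therefore not read as particular to the members.

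Signs turned for Cct4 with quantile normalization (0.028), averaged probe sets (0.17), probe sets without a suffix (0.27) and the bioC block (0.027), for Cct3 without a suffix (-0.11), for Dnaja1 with quantile normalization (0.00089) and the replicate block (0.18), and with averaged probe sets for Dnaja2 (-0.089), Dnajb6 (-0.088) and Hsp90b1 (0.31). On leaving out single arrays Cct3 ran from -0.061 to 0.080, Cct4 from -0.20 to 0.14, Cct6a from -0.033 to 0.11, Dnaja1 from -0.21 to 0.18 and Dnajc2 from -0.032 to 0.18. None of these was called. Of 533 values for 30 named members, 485 kept their sign and side of the threshold, 19 lost a call, 9 gained one and 20 changed sign. The causes were not tested. Members near the filter, such as Dnajc28, have little signal over background.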

Other observations

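The 3 probe sets shared by Dnajc19, a J protein of the mitochondrial import motor, and its pseudogene were outside the comparisons. The brightest read 387, 309.8 and 247.4 on the activated arrays, against 220.6 and 212.1 on the naive ones, all activated values being higher. Another read 37.5, 17.8 and 25.4 against 52.2 and 56.2, all activated values being lower. The third read 74.8, 90.4 and 123.4 against 119.5 and 131, where the groups overlapped.

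Among the 76 tested members, activated replicate 1 had the highest value of the activated arrays for 34, replicate 2 for 25 and replicate 3 for 17. Naive replicate 2 was the higher of the naive arrays for 42 and naive replicate 1 for 33. The same counts over all tested genes were not made, so these are not read as particular to the members.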
